A study of Mus musculus with 8 samples.

Results

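The genes described here are 81 protein-coding genes of mouse splenic B cells whose transcript level was lower at each of 2 steps of stimulation, 81 of the 37583 gene identifiers counted and 81 of the 8442 protein-coding genes with a naive mean of at least 10 CPM (counts per 1000000 counts in genes). They were chosen by measured values: the CpG mean had to lie at least 3-fold below the naive mean, the TLR mean at least 3-fold below the CpG mean, and the libraries of neighbouring groups could not overlap. Of the 8442 genes, 291 (3.45%) met the first step and 442 (5.24%) met the second, whatever their first step. Both steps were met by 94 genes, 86 of them had no overlap between neighbouring groups, and 5 of these (Fcer2a, Cd1d1, S1pr1, Blk and Itga4) were left out by name. Immunoglobulin genes were left out as well. All 8 libraries and both comparisons entered this choice, so the members' levels and fold changes are a description and carry no test.

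RNA was sequenced from B cells of C57BL/6 mouse spleens (strain label B6), in 8 libraries. The TLR group (labelled Bregs-TLR) has 2 libraries of cells kept for 3 days in CpG ODN1668, an oligonucleotide that TLR9 senses, to which LPS, PMA and ionomycin were added for the last 5 hours. LPS acts through TLR4, PMA switches on protein kinase C, and ionomycin lets calcium into the cell. The CpG group (labelled Bregs-CpG) has 3 libraries of cells kept for the same 3 days in CpG ODN1668 alone, and the naive group has 3 libraries of naive B cells. All groups share the spleen as source, and the TLR group shares the CpG culture, so TLR and CpG cells differ by the last 5 hours, while CpG against naive covers culture and CpG together. The labels give neither age nor sex, nor the way B cells were isolated, and they do not say whether replicates came from separate animals or cultures. The spread between replicates may therefore be technical.

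Resting B cells recirculate between blood, spleen and lymph nodes and stay in place or leave under the control of adhesion molecules, chemokine receptors and other G protein-coupled receptors. They also present antigen on class II molecules, carry Fc and complement-regulating receptors, and hold a set of transcription factors that goes with quiescence. Signals through Toll-like receptors, or calcium and protein kinase C signals that stand in for the antigen receptor, drive B cells out of this state into growth, cytokine production and, in some cells, antibody secretion, and many genes of the resting state are then turned down.

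Promoters are shown for 4 members that differ in role and in the motifs they hold: Snn and Ltb, the 2 members with the highest naive level per exonic length, Ccr6, which is among those with the lowest TLR-to-CpG ratios, and Kmo, whose replicates lay close together. The sequences are RefSeq's, build GRCm38.p6, from 250 bases before to 50 bases after the annotated start, written 5′ to 3′ on the strand of the gene, with every motif found set in capitals. Positions are chr16:11066048-11066347, plus strand for Snn, chr17:35194257-35194556, plus strand for Ltb, chr17:8235793-8236092, plus strand and chr17:8242276-8242575, plus strand for the first and second annotated start of Ccr6, and chr1:175631943-175632242, plus strand for Kmo. Capitals mark GC boxes (GGGCGG, or CCGCCC on the other strand) in Snn. In Ltb they mark, in order, a GAS motif (TTCNNNGAA), a FOXO motif (TGTTTAC, here on the other strand) and an E-box (CAGGTG). In the first Ccr6 promoter they mark a pair of GAS motifs and an octamer (ATGCAAAT, on the other strand). The capitals of the second Ccr6 promoter are an NF-kB motif (GGGANTTCC) matched on both strands, and those of Kmo are a PU.1 motif (GAGGAAGT).
Snn: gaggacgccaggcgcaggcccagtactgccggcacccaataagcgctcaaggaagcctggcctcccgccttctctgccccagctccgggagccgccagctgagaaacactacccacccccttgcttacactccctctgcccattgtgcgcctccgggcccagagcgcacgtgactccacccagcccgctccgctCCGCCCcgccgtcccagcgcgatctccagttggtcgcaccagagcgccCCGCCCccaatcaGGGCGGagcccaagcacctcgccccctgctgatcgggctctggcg
Ltb: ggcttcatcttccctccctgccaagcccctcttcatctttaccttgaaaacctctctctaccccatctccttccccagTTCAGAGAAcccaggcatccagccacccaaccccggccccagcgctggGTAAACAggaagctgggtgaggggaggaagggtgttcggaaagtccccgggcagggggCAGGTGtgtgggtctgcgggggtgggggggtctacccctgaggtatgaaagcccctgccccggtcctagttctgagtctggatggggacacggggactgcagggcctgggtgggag
Ccr6: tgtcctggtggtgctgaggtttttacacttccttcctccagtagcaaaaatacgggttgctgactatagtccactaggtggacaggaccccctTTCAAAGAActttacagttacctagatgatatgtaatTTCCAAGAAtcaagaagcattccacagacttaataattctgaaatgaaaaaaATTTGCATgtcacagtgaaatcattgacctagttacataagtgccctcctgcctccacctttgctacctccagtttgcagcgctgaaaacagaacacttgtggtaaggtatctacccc
Ccr6: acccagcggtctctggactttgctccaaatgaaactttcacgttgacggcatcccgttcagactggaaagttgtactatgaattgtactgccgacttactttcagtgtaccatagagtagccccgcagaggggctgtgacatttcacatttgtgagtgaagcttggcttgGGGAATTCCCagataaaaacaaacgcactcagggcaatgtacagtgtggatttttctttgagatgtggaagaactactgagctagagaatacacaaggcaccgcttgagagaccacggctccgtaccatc
Kmo: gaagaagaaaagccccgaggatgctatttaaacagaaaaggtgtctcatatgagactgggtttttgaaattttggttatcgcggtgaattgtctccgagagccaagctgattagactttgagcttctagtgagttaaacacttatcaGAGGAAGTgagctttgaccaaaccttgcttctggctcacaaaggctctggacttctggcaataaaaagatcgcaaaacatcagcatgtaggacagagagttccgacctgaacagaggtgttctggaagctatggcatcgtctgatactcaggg

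Together the members took a small share of each library, lowest in TLR cells. They held 0.0388% and 0.0415% of the gene counts in TLR cells, against 0.268%, 0.246% and 0.213% in CpG cells and 1.15%, 1.14% and 1.15% in naive cells. The groups did not overlap, and the 3 naive libraries had a mean of 1.15% with an SD of 0.00591 percentage points. The median member had 0.988 CPM in TLR cells (range 0 to 70.2), 8.87 CPM in CpG cells (0.0781 to 264) and 43.8 CPM in naive cells (10.07 to 917). The CpG mean was 0.385% to 32.8% of the naive mean (median 18.9%), and the TLR mean was 0% to 33.3% of the CpG mean (median 17.9%). At the end of both steps the TLR mean was at most 9.15% of naive, with a median of 2.33%, and 18 of the 81 members had 1% or less of their naive level. The second step was the steeper one for 43 members. In bulk RNA, fewer cells that transcribe a gene and less of its RNA in each cell cannot be told apart.

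**Figure D1:**
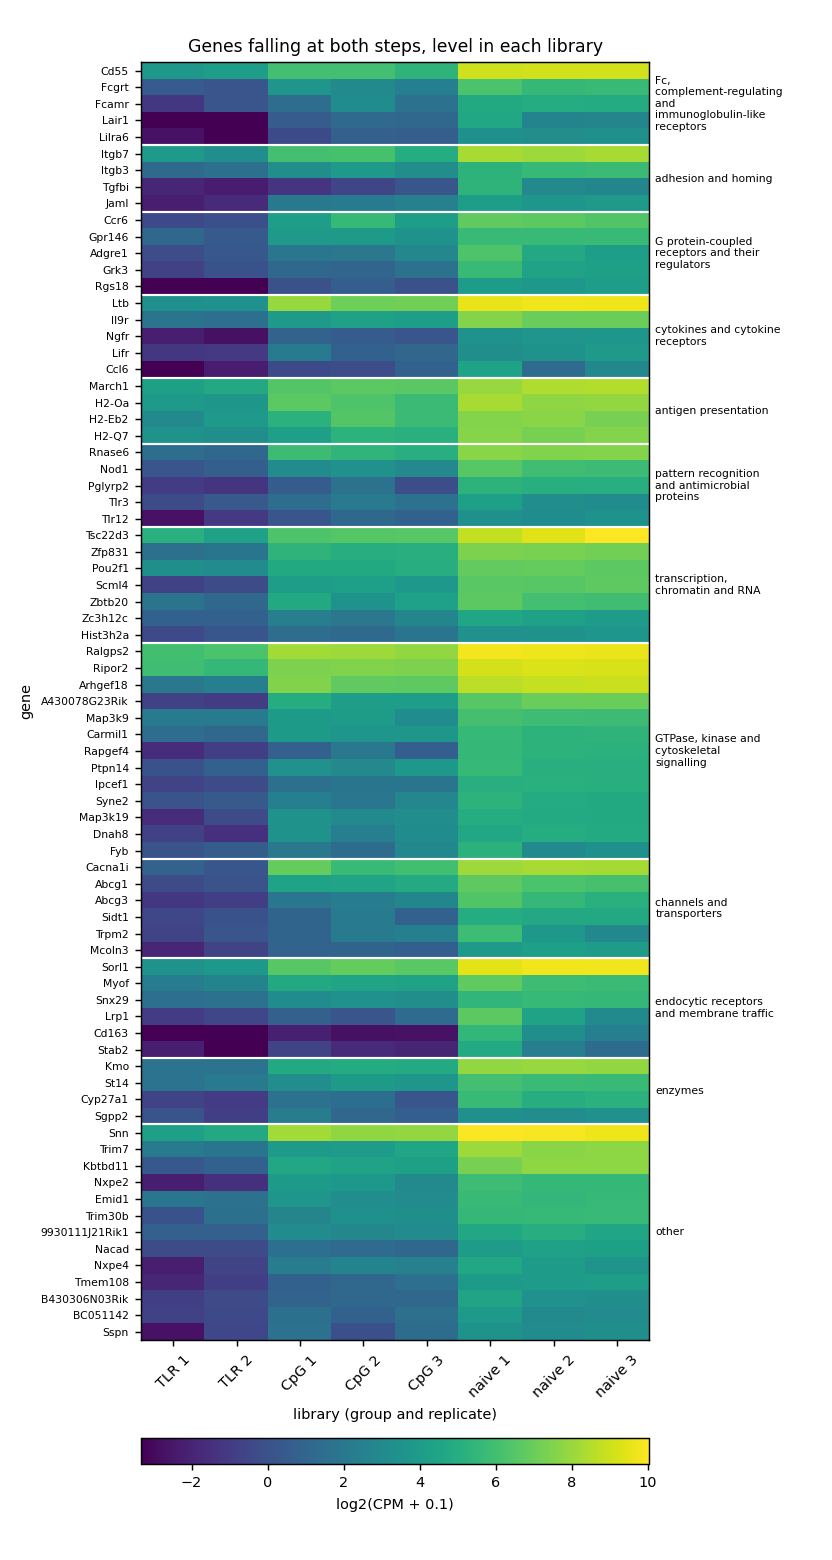
Level of 77 of the 81 genes (rows, grouped by role) in each of the 8 libraries (columns), as log2(CPM + 0.1). In every row the 2 TLR libraries are the darkest, the CpG libraries lie between and the naive libraries are the brightest, because the genes were chosen that way; Lrp1, Cd163 and Stab2 stand out by a bright naive replicate 1.

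Sequencing depth was even, with 15804311 to 20069272 counts in genes per library, so that 1 count was worth 0.0498 to 0.0633 CPM. Replicate 1 of each group carries a different file prefix (RCa1) from the others (RCa18), which the labels do not explain, and 37.5% to 50.2% of its counted lines were reads aligned to several places, against 14.7% to 21.5% in the other libraries. Because neighbouring groups could not overlap, the choice itself made every member lower at both steps within either prefix; 67 members were past 3-fold at both steps in the RCa1 libraries and 61 in the RCa18 libraries. The 11 B cell defining markers (Cd79a, Cd79b, Ms4a1, Pax5 and others, none of them a member) summed to 3242 and 3505 CPM in TLR cells, against 14848, 10902 and 10799 CPM in CpG cells and 12730, 13175 and 13106 CPM in naive cells. Every one of these markers was detected in every library, at lower levels in TLR cells, but by unlike amounts. Ebf1 had 302 and 290 CPM in TLR cells and 466, 353 and 416 CPM in CpG cells (naive 442, 391 and 384 CPM). Ms4a1 (CD20) differed far more, with 52.8 and 76.4 CPM in TLR cells, against 2438, 1468 and 2027 CPM in CpG cells. The naive libraries had 1853, 2118 and 2157 CPM of Ms4a1. By edgeR, 11 of the 11 were called lower in TLR than in CpG cells while 1 of 11 was called lower in CpG than in naive cells. The part of this difference in the members' second step was not tested.

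In the fit of all 13964 tested genes (edgeR quasi-likelihood, Benjamini-Hochberg adjusted p below 0.05), 2770 genes (19.8%) were called lower and 2647 (19.0%) higher in TLR than in CpG cells, and 3061 (21.9%) lower and 3286 (23.5%) higher in CpG than in naive cells. Of the members, 74 of 81 were called lower at the second step and 81 of 81 at the first. The rule chose them on the same contrasts, so nothing is read from these counts. The members' median log2 fold change was -2.50 for TLR against CpG (all tested genes -0.02) and -2.39 for CpG against naive (all tested genes 0.01). The median of all genes moved by less than 0.1 under the other scalings tried. Fold changes below come from this fit and are given with their standard error (SE; n = 2 TLR, 3 CpG and 3 naive libraries).

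**Figure D2:**
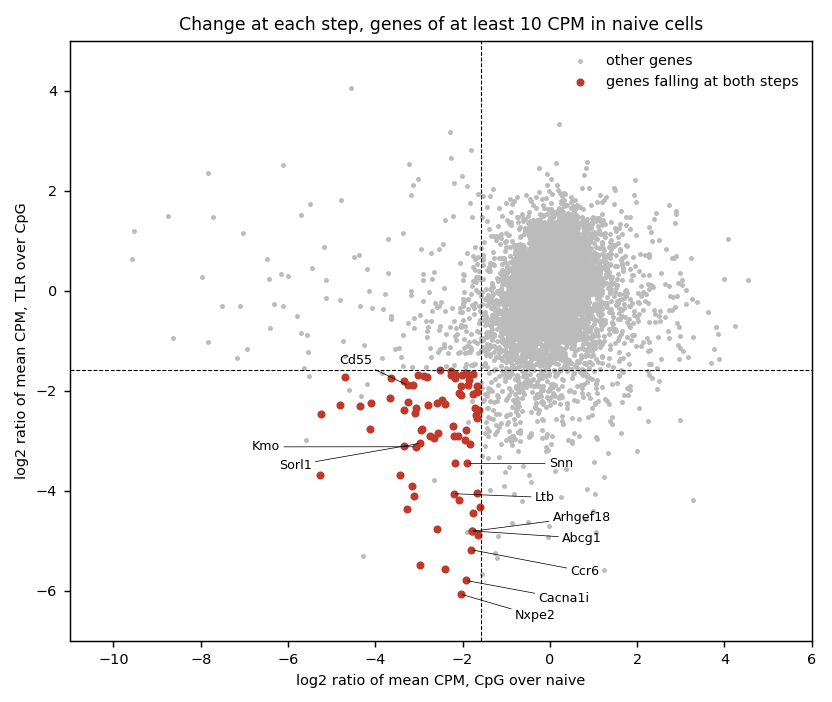
Each point is a protein-coding gene with a naive mean of at least 10 CPM; the horizontal axis is the log2 ratio of mean CPM in CpG over naive cells, the vertical axis that in TLR over CpG cells, and dashed lines mark 3-fold. The red points are 78 of the 81 genes chosen (the other 3 had no TLR counts), and the 11 grey points in the same corner are genes left out by name or for overlapping libraries.

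Receptors of the Fc, complement-regulating and immunoglobulin-like families gave 5 members. Cd55, decay-accelerating factor, which shields cells from complement, had the highest CPM of them. It had 13.9 and 17.03 CPM in TLR cells, against 65.2, 65.7 and 41.5 CPM in CpG cells and 534, 554 and 555 CPM in naive cells. Its log2 fold changes were -1.91 ± 0.22 for TLR against CpG and -3.23 ± 0.19 for CpG against naive, so most of the difference lay at the first step, and CpG replicate 3 was the lowest of its group. Fcgrt, the heavy chain of the neonatal Fc receptor that recycles IgG and albumin, had 1.31 and 1.03 CPM in TLR cells, against 12.5, 8.32 and 5.31 CPM in CpG cells and 75.5, 47.5 and 53.6 CPM in naive cells. The fold changes on the log2 scale were -2.91 ± 0.41 for TLR against CpG and -2.73 ± 0.30 for CpG against naive, nearly equal at both steps. Fcamr, an Fc receptor for IgM and IgA, averaged 0.686 ± 0.486 CPM in TLR cells, 4.91 ± 3.56 CPM in CpG cells and 29.1 ± 1.45 CPM in naive cells (SD).

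The immunoglobulin-like receptors Lair1 and Lilra6 lie next to each other on chromosome 7 with no protein-coding gene between them, and were close to undetected in TLR cells. Lair1, an inhibitory receptor for collagen, had 0 and 0 CPM in TLR cells, against 1.39, 2.28 and 2.14 CPM in CpG cells and 24.7, 6.43 and 6.63 CPM in naive cells. With no count in either TLR library it was at least 24.2-fold lower in TLR than in CpG cells (bound at 3 counts over the group). The naive level rested on replicate 1: the log2 fold change of CpG against naive was -2.66 ± 0.55 with all libraries and -1.75 without naive replicate 1. Lilra6 had 0.05698 and 0 CPM in TLR cells, against 0.696, 1.59 and 1.53 CPM in CpG cells and 10.4, 9.52 and 10.3 CPM in naive cells, or 1 count over the TLR group, and its CpG-to-TLR ratio of counts was 48.2 (95% exact interval 8.37 to 1931). Its fitted change of TLR against CpG was -5.26 ± 0.75, -7.596 without TLR replicate 1 and -4.36 without TLR replicate 2. Lilra6 has close gene copies, so its counts are uncertain.

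Adhesion and homing molecules gave 5 members, among them 2 integrin chains. Itgb7, the beta7 integrin chain used in homing to the gut, had 14.4 and 9.21 CPM in TLR cells, against 68.4, 69.6 and 31.1 CPM in CpG cells and 309, 273 and 306 CPM in naive cells, with log2 fold changes of -2.28 ± 0.35 for TLR against CpG and -2.37 ± 0.29 for CpG against naive. CpG replicate 3 was the lowest CpG library. Itgb3, the beta3 integrin chain, averaged 2.69 ± 0.419 CPM in TLR cells, 11.2 ± 2.57 CPM in CpG cells and 47.6 ± 7.19 CPM in naive cells (SD); it is also a platelet marker, and the other 9 platelet markers summed to 4.44 and 5.92 CPM in TLR cells, 5.57, 4.98 and 4.82 CPM in CpG cells and 21.95, 7.67 and 11.95 CPM in naive cells. Jaml, a junctional adhesion molecule-like protein of leukocytes, had 0.114 and 0.206 CPM in TLR cells, against 4.18, 4.504 and 5.53 CPM in CpG cells and 16.9, 12.96 and 14.6 CPM in naive cells. Most of its difference lay at the second step, with log2 fold changes of -4.83 ± 0.37 for TLR against CpG and -1.62 ± 0.22 for CpG against naive. Tgfbi, an extracellular matrix protein, is described with the genes high in naive replicate 1.

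G protein-coupled receptors and their regulators gave 6 members. Ccr6, the receptor for the chemokine CCL20, had 0.684 and 0.875 CPM in TLR cells, against 17.8, 50.02 and 17.1 CPM in CpG cells and 111, 101 and 84.9 CPM in naive cells, and its promoters are printed above. CpG replicate 2 had nearly 3 times the level of the other CpG libraries, and this library moved both steps: the log2 fold changes were -5.18 ± 0.60 for TLR against CpG and -1.78 ± 0.36 for CpG against naive with all libraries, and -4.48 and -2.47 without CpG replicate 2. In every library of TLR cells the level was under 1 CPM. Gpr146, an orphan receptor, had 2.11 and 1.29 CPM in TLR cells, against 14.2, 15.5 and 10.96 CPM in CpG cells and 53.6, 50.7 and 51.4 CPM in naive cells.

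Rgs18, a regulator that switches off G protein signals, had 0 and 0 CPM in TLR cells, against 0.886, 1.48 and 0.876 CPM in CpG cells and 15.9, 14 and 16.9 CPM in naive cells. Its naive libraries were even, it was at least 13.5-fold lower in TLR than in CpG cells and at least 192-fold lower in TLR than in naive cells (bounds at 3 counts over the group). Grk3, a kinase that desensitises such receptors, and Adgre1, the macrophage receptor F4/80, are described with the genes high in naive replicate 1. Of the other G protein-coupled receptors and RGS proteins on a list of this class, 41 were tested and none of them is a member: 15 were called lower and 4 higher in TLR than in CpG cells, and 25 lower and 3 higher in CpG than in naive cells.

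Cytokines and cytokine receptors gave 5 members, among them the member with the highest naive level per exonic length. Ltb, lymphotoxin beta, a membrane cytokine through which B cells help to build follicles, had 10.3 and 10.9 CPM in TLR cells, against 249, 136 and 145 CPM in CpG cells and 761, 850.3 and 839 CPM in naive cells. The TLR libraries differed little from each other, CpG replicate 1 was the highest CpG library, and the log2 fold changes were -4.08 ± 0.30 for TLR against CpG and -2.19 ± 0.22 for CpG against naive, so that the larger one was TLR against CpG. Il9r, the interleukin-9 receptor chain, had 3.42 and 2.88 CPM in TLR cells, against 14.9, 19.7 and 16.98 CPM in CpG cells and 186, 125 and 130.2 CPM in naive cells, with log2 fold changes of -2.46 ± 0.23 for TLR against CpG and -3.07 ± 0.18 for CpG against naive. Lifr, the receptor chain for leukaemia inhibitory factor, averaged 0.351 ± 0.013 CPM in TLR cells, 2.64 ± 1.402 CPM in CpG cells and 12.2 ± 2.49 CPM in naive cells (SD). Ngfr, a neurotrophin receptor of the TNF receptor family, had 3 counts over the TLR group against 74 over the CpG group and 716 over the naive group. Its CpG-to-TLR ratio of counts was 17.2 (95% exact interval 5.67 to 85.5). The naive libraries of Ngfr were even, at 11.6, 12.5 and 12.9 CPM.

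**Figure D3:**
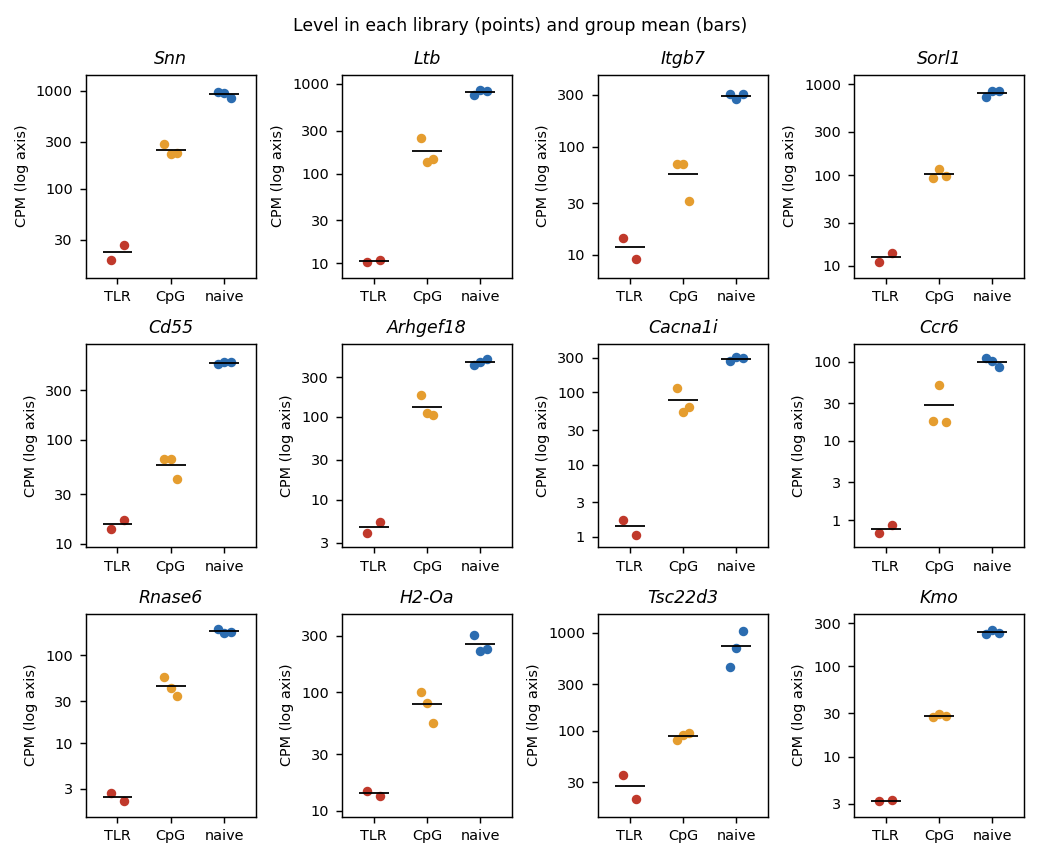
CPM of 12 of the genes in each library (points, log axis) with the group mean (bar), for TLR, CpG and naive cells. Within each gene the groups do not overlap; Tsc22d3 spreads widely in naive cells, and so does Ccr6 in CpG cells, where replicate 2 reached 50.02 CPM.

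Antigen presentation gave 4 members, and 3 of them lie on chromosome 17. H2-Oa, a chain of the H2-O complex that restrains peptide loading onto class II molecules in B cells, had 14.8 and 13.4 CPM in TLR cells, against 100.1, 80.7 and 55.5 CPM in CpG cells and 306, 223 and 231 CPM in naive cells, with log2 fold changes of -2.50 ± 0.26 for TLR against CpG and -1.66 ± 0.21 for CpG against naive. An antisense gene, BC051537, overlaps 22.8% of the exonic bases of H2-Oa, and reads of the 2 cannot be told apart because counting ignored strand. H2-Eb2, a class II beta chain, had 8.43 and 14.3 CPM in TLR cells, against 36.9, 87.4 and 54.9 CPM in CpG cells and 186, 205 and 158 CPM in naive cells. The CpG libraries of H2-Eb2 spread over more than 2-fold, and at 32.6% of naive it only just met the first step. H2-Q7, a non-classical class I molecule with close copies, had 11.2 and 9.83 CPM in TLR cells, against 18.6, 39.9 and 36.1 CPM in CpG cells and 194, 159 and 189.9 CPM in naive cells, and at 33.3% of the CpG mean it only just met the second step. March1, an E3 ubiquitin ligase that takes class II molecules and CD86 off the surface, had 19.3 and 26.6 CPM in TLR cells, against 88.7, 101 and 98 CPM in CpG cells and 255, 352 and 360.5 CPM in naive cells. The fold changes on the log2 scale were -2.07 ± 0.20 for TLR against CpG and -1.73 ± 0.17 for CpG against naive. None of the 4 was below 8 CPM in any library, and TLR cells held 5.56% to 7.12% of the naive level; the median of 5.99% was the highest of the 12 classes.

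Pattern recognition and antimicrobial proteins gave 5 members, of which 3 are innate sensors. Nod1, an intracellular sensor of bacterial peptidoglycan, had 1.08 and 1.54 CPM in TLR cells, against 8.73, 10.6 and 7.83 CPM in CpG cells and 93.4, 61.2 and 55.8 CPM in naive cells. Its log2 fold changes were -2.79 ± 0.31 for TLR against CpG and -2.93 ± 0.22 for CpG against naive, and naive replicate 1 was the highest library. Tlr3, the endosomal receptor for double-stranded RNA, had 0.741 and 1.24 CPM in TLR cells, against 2.59, 4.56 and 3.12 CPM in CpG cells and 18.3, 9.62 and 8.98 CPM in naive cells. Tlr12, an endosomal receptor that in mice senses profilin of parasites, had 0.05698 and 0.3602 CPM in TLR cells, against 1.08, 2.12 and 1.64 CPM in CpG cells and 10.3, 9.07 and 11.2 CPM in naive cells. These were low counts: the log2 fold change of Tlr12 for TLR against CpG was -2.89 ± 0.57 with all libraries, -2.15 without TLR replicate 1 and -4.70 without TLR replicate 2. Rnase6, an antimicrobial ribonuclease, had 2.68 and 2.16 CPM in TLR cells, against 56.1, 42.7 and 34.02 CPM in CpG cells and 199.7, 179 and 186 CPM in naive cells, with log2 fold changes of -4.21 ± 0.25 for TLR against CpG and -2.07 ± 0.17 for CpG against naive. Pglyrp2, an amidase that cleaves peptidoglycan, averaged 0.354 ± 0.0637 CPM in TLR cells, 1.74 ± 1.14 CPM in CpG cells and 35.6 ± 3.48 CPM in naive cells (SD), so that CpG cells held 4.90% of the naive level.

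Transcription, chromatin and RNA regulators gave 8 members. Tsc22d3, the glucocorticoid-induced leucine zipper protein, had 35.2 and 20.02 CPM in TLR cells, against 80.9, 91.2 and 95.8 CPM in CpG cells and 443, 692 and 1046 CPM in naive cells. Its naive libraries differed more than 2-fold, with replicate 1 the lowest, and even that library was more than 4 times the highest CpG library. The log2 fold changes were -1.71 ± 0.35 for TLR against CpG and -3.01 ± 0.31 for CpG against naive. Pou2f1, the octamer-binding factor Oct-1, had 9.8 and 8.697 CPM in TLR cells, against 27.97, 27.7 and 31.3 CPM in CpG cells and 114, 116 and 101 CPM in naive cells, with log2 fold changes of -1.66 ± 0.13 for TLR against CpG and -1.91 ± 0.11 for CpG against naive. The T cell gene Cd247 overlaps 18.1% of the exonic bases of Pou2f1 on the opposite strand, and had 121 counts over all libraries. Zfp831, a zinc finger protein, averaged 3.25 ± 0.493 CPM in TLR cells, 35.3 ± 5.3 CPM in CpG cells and 159 ± 14.2 CPM in naive cells (SD). Scml4, a Polycomb-related protein, had 0.513 and 0.7205 CPM in TLR cells, against 17.5, 18.7 and 13.97 CPM in CpG cells and 97.1, 95.2 and 107 CPM in naive cells, and most of its difference lay at the second step (-4.75 ± 0.24 against -2.56 ± 0.15 at the first, log2). Zbtb20, a zinc finger repressor, Zc3h12c, an RNA-binding protein of the Regnase family, and the histone gene Hist3h2a had TLR means of 3.78% to 8.49% of naive; Trim17 shares 33.0% of the exonic bases of Hist3h2a, which is therefore uncertain.

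Signalling through small GTPases, kinases and the cytoskeleton was the largest class, with 14 members. Ralgps2, an exchange factor for Ral GTPases, had the highest CPM of the class, with 63.4 and 77.04 CPM in TLR cells, against 289, 267 and 237 CPM in CpG cells and 895, 829 and 785 CPM in naive cells. The fold changes on the log2 scale were -1.93 ± 0.16 for TLR against CpG and -1.64 ± 0.13 for CpG against naive, and its TLR mean of 70.2 CPM was the highest of all members. Ripor2, a regulator of small GTPases, had 60.7 and 47.5 CPM in TLR cells, against 171, 179 and 170.1 CPM in CpG cells and 572, 610.1 and 592 CPM in naive cells. Of all members it kept the largest share of its naive level in TLR cells, 9.15%. Arhgef18, a guanine nucleotide exchange factor, had 3.99 and 5.404 CPM in TLR cells, against 182, 110.5 and 104 CPM in CpG cells and 421, 457 and 499.5 CPM in naive cells. The first step left CpG cells at 28.8% of naive and the second left TLR cells at 3.55% of CpG, with log2 fold changes of -4.83 ± 0.31 for TLR against CpG and -1.78 ± 0.22 for CpG against naive. A430078G23Rik, the neighbour of Arhgef18 on chromosome 8, is listed as a synonym of it by RefSeq and had 0.513 and 0.412 CPM in TLR cells, against 30.8, 17.96 and 17.04 CPM in CpG cells and 94.3, 125 and 129 CPM in naive cells, so the 2 rows may describe the same locus.

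Rapgef4, a cyclic AMP-activated exchange factor for Rap GTPases (EPAC2), had 0.228 and 0.463 CPM in TLR cells, against 1.58, 4.03 and 1.48 CPM in CpG cells and 47.6, 39.6 and 36.4 CPM in naive cells. CpG replicate 2 was the highest CpG library: the log2 fold changes were -2.76 ± 0.56 for TLR against CpG and -4.09 ± 0.36 for CpG against naive with all libraries, and -2.12 and -4.72 without CpG replicate 2. Without TLR replicate 2, TLR against CpG was -3.37. These counts were low, with under 1 CPM in both TLR libraries. Map3k9 and Map3k19, kinases of stress-activated pathways, had TLR means of 4.295 and 0.474 CPM, CpG means of 13.6 and 9.48 CPM and naive means of 61.6 and 28.9 CPM. Carmil1, which regulates actin filament capping, had a TLR mean of 2.34 CPM, a CpG mean of 13.7 CPM and a naive mean of 43.8 CPM, and it is separated from Ripor2 on chromosome 13 by 1 protein-coding gene. Ptpn14, a tyrosine phosphatase, Ipcef1, a cytohesin-interacting protein, Syne2, a nuclear envelope spectrin-repeat protein, the dynein heavy chain gene Dnah8 and the adaptor gene Fyb had TLR means between 0.385 and 1.305 CPM.

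Channels and transporters gave 6 members. Cacna1i, the pore-forming subunit of a T-type calcium channel, had 1.71 and 1.08 CPM in TLR cells, against 116, 53.8 and 62.9 CPM in CpG cells and 274, 312 and 296 CPM in naive cells. It was the member of this class with the steepest second step, -5.82 ± 0.42 (log2) against -1.90 ± 0.26 at the first, and both TLR libraries were below 2 CPM. Abcg1, which exports cholesterol to lipoproteins, had 0.741 and 0.978 CPM in TLR cells, against 21.4, 22.3 and 28.4 CPM in CpG cells and 104, 75.8 and 69.6 CPM in naive cells, a similar pattern with log2 fold changes of -4.80 ± 0.28 for TLR against CpG and -1.77 ± 0.17 for CpG against naive. Mcoln3, a cation channel of endosomes and lysosomes, had 0.171 and 0.566 CPM in TLR cells, against 1.77, 1.91 and 1.48 CPM in CpG cells and 14.9, 18.4 and 15.7 CPM in naive cells. Its log2 fold change for TLR against CpG was -2.19 ± 0.42 with all libraries, -1.60 without TLR replicate 1 and -3.31 without TLR replicate 2. Trpm2, a calcium-permeable channel opened by ADP-ribose, had 0.5698 and 1.03 CPM in TLR cells, against 1.898, 4.504 and 5.26 CPM in CpG cells and 59.3, 13.8 and 7.52 CPM in naive cells. Its naive level rested on replicate 1, and the log2 fold change of CpG against naive was -2.75 ± 0.70 with all libraries and -1.45 without naive replicate 1. Sidt1 averaged 0.777 ± 0.212 CPM in TLR cells, 2.73 ± 1.67 CPM in CpG cells and 27.95 ± 2.17 CPM in naive cells (SD).

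Endocytic receptors and membrane traffic gave 6 members and enzymes gave 4. Sorl1, a sorting receptor of endosomes and the Golgi, had 11.1 and 13.8 CPM in TLR cells, against 93.96, 117 and 98.9 CPM in CpG cells and 728, 855 and 855 CPM in naive cells. Its log2 fold changes of -3.07 ± 0.18 for TLR against CpG and -2.96 ± 0.15 for CpG against naive were nearly equal, each step leaving about the same share. Kmo, kynurenine monooxygenase of the tryptophan pathway, whose promoter is printed above, showed the same even pattern with little scatter between replicates. It had 3.25 and 3.29 CPM in TLR cells, against 27.1, 29.9 and 28.4 CPM in CpG cells and 229.7, 254 and 235 CPM in naive cells, with log2 fold changes of -3.13 ± 0.14 for TLR against CpG and -3.05 ± 0.10 for CpG against naive. Myof, a membrane repair protein, and Snx29, a sorting nexin, had TLR means of 5.698 and 3.02 CPM, CpG means of 23.4 and 9.77 CPM and naive means of 74.2 and 46.9 CPM. The enzymes Cyp27a1, a sterol hydroxylase, St14, the membrane serine protease matriptase, and Sgpp2, a phosphatase of sphingosine phosphate, had TLR means of 0.491, 3.76 and 0.744 CPM, CpG means of 2.32, 12.7 and 2.77 CPM and naive means of 39.7, 57.1 and 10.1 CPM. Sgpp2 shares 6.20% of its exonic bases with Farsb, an abundant gene on the opposite strand.

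The remaining 13 members belong to no class above, and they include the one with the highest naive CPM. Snn, stannin, a small membrane protein whose promoter is printed above, had 18.5 and 26.7 CPM in TLR cells, against 286, 226 and 232 CPM in CpG cells and 975, 945 and 832 CPM in naive cells. Its log2 fold changes were -3.47 ± 0.21 for TLR against CpG and -1.87 ± 0.17 for CpG against naive, the larger one at the second step. Trim7, an E3 ubiquitin ligase, had 4.67 and 3.5 CPM in TLR cells, against 14.9, 15.9 and 23.6 CPM in CpG cells and 268, 205 and 215 CPM in naive cells, with the larger one at the first step (-3.64 ± 0.20 for CpG against naive and -2.17 ± 0.24 for TLR against CpG, log2). Kbtbd11, a protein with BTB and Kelch domains, had 1.197 and 1.698 CPM in TLR cells, against 25.8, 20.9 and 18.95 CPM in CpG cells and 158, 219 and 213 CPM in naive cells; the unclassified locus Gm37844 on the opposite strand shares 24.8% of its exonic bases, so its counts are uncertain. Nxpe2 and Nxpe4, neighbours on chromosome 9, had TLR means of 0.186 and 0.34 CPM, CpG means of 12.5 and 5.62 CPM and naive means of 51.5 and 18.01 CPM. At 1.49% of the CpG mean, Nxpe2 had the lowest TLR-to-CpG ratio among members with TLR counts. The other 8 (Trim30b, Emid1, Tmem108, Sspn, Nacad, 9930111J21Rik1, B430306N03Rik and BC051142) had naive means of 10.1 to 49.2 CPM, and Trim30b and 9930111J21Rik1 have close copies.

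Levels can be compared between genes only per length. Per kilobase of exon, the TLR level was 6.98 CPM for Ltb, 7.604 for Snn, 6.36 for Tsc22d3 and 3.19 for Cd55. The corresponding naive levels were 539, 309, 167 and 113 CPM per kilobase. H2-Oa, at 9.999 CPM per kilobase in TLR cells and 179.8 in naive cells, came after Ltb and Snn in naive cells and was the highest of all members in TLR cells. In counts, the 7 members with the highest naive means (among them Snn, Ralgps2, Ltb, Sorl1, Tsc22d3 and Ripor2) held 47.8% of the members' summed naive CPM.

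A group of 13 members was high in a single naive library. Their naive replicate 1 was at least 2 times the mean of naive replicates 2 and 3, against 130 of the 8442 genes (1.54%) and 82 of the 291 genes that met the first step. Among the 13 were Abcg3, Adgre1, B430306N03Rik, Ccl6, Cd163, Fyb, Grk3, Lair1, Lrp1, Stab2, Tgfbi and Trpm2. Some of them are known from macrophages, such as Adgre1 and Cd163, a scavenger receptor for haemoglobin. Stab2 is a hyaluronan scavenger receptor and Lrp1 a large endocytic receptor. The 13 summed to 4.44 and 6.64 CPM in TLR cells, against 22.7, 25.4 and 40.4 CPM in CpG cells and 662, 193 and 143 CPM in naive cells. The other 68 members summed to 383 and 409 CPM in TLR cells, against 2660.3, 2438 and 2091 CPM in CpG cells and 10868, 11219 and 11332 CPM in naive cells, which is 97.1% of the members' naive sum. That sum is carried by a few genes, and single members of the 68 came close to the limit of 2 times, with Tlr3 at 1.97, Myof at 1.92 and Nxpe4 at 1.86 times. Of all 81 members, 49 were highest in naive replicate 1, among them the 13 picked for it. The share over all genes was not counted, so nothing is read from this number.

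In sum, macrophage and monocyte markers were also highest in naive replicate 1 and lower in CpG than in naive cells. Leaving out the members among them (Adgre1 and Cd163), 22 such markers summed to 135 and 150.1 CPM in TLR cells, against 166, 169 and 189.9 CPM in CpG cells and 2767, 761 and 496 CPM in naive cells. Clec4f was at 0 in every library. Cd163 had 0 and 0 CPM in TLR cells, against 0.127, 0.05299 and 0.0548 CPM in CpG cells and 45.7, 9.82 and 5.38 CPM in naive cells. With 0 counts over the TLR group and 4 over the CpG group, no fold is given for its second step; its log2 fold change of CpG against naive was -7.91 ± 1.09 with all libraries and -6.53 without naive replicate 1. Adgre1, the macrophage receptor F4/80, had 0.798 and 1.13 CPM in TLR cells, against 3.67, 3.87 and 7.29 CPM in CpG cells and 80.5, 26.2 and 17.6 CPM in naive cells.

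Other genes of the 13 are not known as macrophage genes alone. Lrp1 had 0.399 and 0.618 CPM in TLR cells, against 1.58, 1.06 and 2.41 CPM in CpG cells and 102, 20.8 and 7.88 CPM in naive cells. Grk3 had 0.513 and 0.926 CPM in TLR cells, against 2.21, 1.96 and 3.07 CPM in CpG cells and 50.5, 20.6 and 19.3 CPM in naive cells, with the naive libraries closer together. Tgfbi had 0.171 and 0.103 CPM in TLR cells, against 0.316, 0.583 and 1.096 CPM in CpG cells and 41.6, 7.82 and 6.94 CPM in naive cells, and Fyb, an adaptor of leukocyte signalling, had 1.03 and 1.44 CPM in TLR cells, against 3.92, 2.49 and 7.395 CPM in CpG cells and 37.9, 8.42 and 10.5 CPM in naive cells. Naive replicate 1 was the highest library in each, which is how the 13 were picked. Abcg3, a transporter-family gene with close copies, had 0.342 and 0.463 CPM in TLR cells, against 3.67, 4.98 and 6.85 CPM in CpG cells and 84.8, 47.1 and 35.5 CPM in naive cells. Stab2 held 2 counts over the TLR group, with a CpG-to-TLR ratio of counts of 5.59 (95% exact interval 1.31 to 50.1), and Ccl6, a CC chemokine, held 2 counts, with a ratio of 19.9 (5.27 to 168).

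Markers of other cell types that are not members were also lower in CpG than in naive cells for most cell types, but not for all. Of the tested markers, 18 of 21 for macrophages and monocytes were called lower and 1 higher, 7 of 11 for dendritic cells lower and 2 higher, 12 of 16 for T cells lower and 1 higher, and 13 of 14 for natural killer cells lower and 1 higher. For basophils, mast cells and eosinophils 6 of 8 were lower, and for erythroid cells 5 of 8 lower and 1 higher. Neutrophil markers gave 2 of 4 lower and 1 higher, platelet markers 1 of 3 lower, and stromal and endothelial markers 0 of 4. Over all tested genes, 21.9% were called lower and 23.5% higher. In TLR against CpG, 1 macrophage, 1 dendritic cell and 3 T cell markers were called lower, and 1 dendritic cell and 1 natural killer cell marker higher, by edgeR. From the other lists, 1 basophil, mast cell and eosinophil, 1 erythroid and 1 stromal and endothelial marker were lower, and 2 erythroid markers higher. Over all tested genes, 19.8% were lower and 19.0% higher. The part of these markers in the members' first step was not tested.

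Without naive replicate 1, 67 genes met the rule, and 63 of them were among the 81. Of the 18 members lost, 8 belonged to the 13 (among them Ccl6, Cd163, Fyb, Lair1, Stab2, Tgfbi and Trpm2) and 10 did not. Lrp1, Adgre1, Grk3, Abcg3 and B430306N03Rik met the rule without that library as well.

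**Figure D4:**
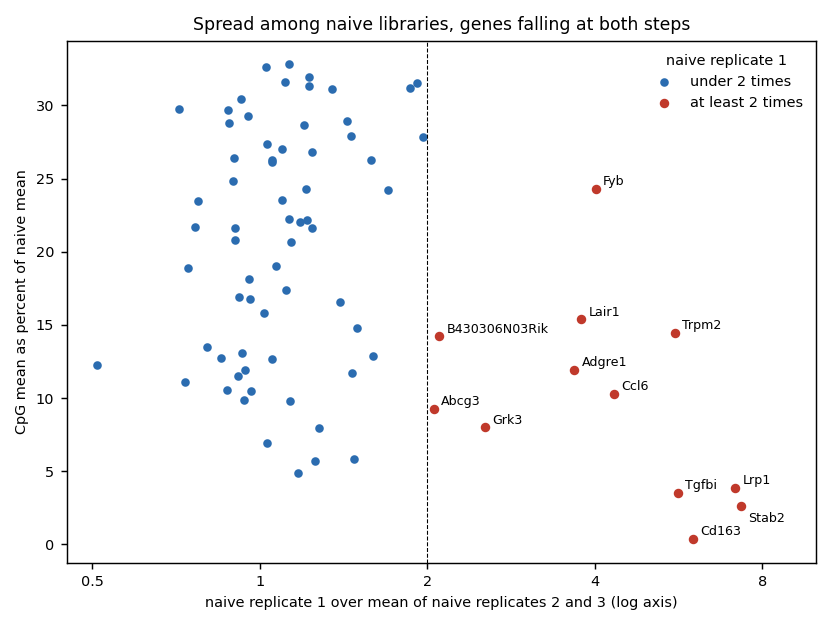
For 77 of the 81 genes, the level in naive replicate 1 over the mean of naive replicates 2 and 3 (horizontal, log axis) against the CpG mean as a percent of the naive mean (vertical). The 12 red points right of the dashed line are the genes at 2 times or more; 4 of them (Cd163, Stab2, Lrp1 and Tgfbi) lie below 5% of naive, at 5.63 to 7.31 times.

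Values near the thresholds of the rule formed a continuous range. Just inside the first step were H2-Eb2 (32.6% of naive) and Map3k19 (32.8%), and just outside were Adamts6 (33.5%) and Aff3 (33.7%). Just inside the second step were Emid1 (32.8% of CpG) and H2-Q7 (33.3%), and just outside were Tbc1d9 (33.7%) and Xkrx (34.3%). At the minimum naive level, Lilra6 (10.07 CPM) and Sgpp2 (10.1 CPM) were inside and Slc9a9 (9.79 CPM) and Ccr1 (8.79 CPM) outside. A further 8 genes met both steps and were lost to overlapping libraries (Igf1, Abcc3, Gfra2, Gzma, Crisp3, Itih5, Mrc1 and Gm10800).

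Genes of related function that are not members were taken from 12 lists drawn up from general knowledge with earlier results of these data known. Of 424 such genes tested, 226 were called lower and 39 higher in TLR than in CpG cells, and 224 lower and 71 higher in CpG than in naive cells; over all tested genes the shares were those given above. B cell receptor signalling and inhibitory co-receptors had the largest share called at the second step, with 34 of 43 lower and 2 higher in TLR than in CpG cells, and 16 lower and 9 higher in CpG than in naive cells. Counted for each step apart, antigen presentation and co-stimulation had 19 of 28 lower and 3 higher in TLR than in CpG cells and 19 lower and 1 higher in CpG than in naive cells. Solute and ion transport had 19 of 48 lower and 7 higher in TLR than in CpG cells, and 31 lower and 8 higher in CpG than in naive cells.

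The other lists were counted in the same way. Of 25 adhesion and homing receptors, 14 were lower and 1 higher in TLR than in CpG cells, and 13 lower and 7 higher in CpG than in naive cells. Of 58 transcription factors of the B lineage and of quiescence, 32 were lower and 7 higher in TLR than in CpG cells, and 26 lower and 8 higher in CpG than in naive cells. Cytokine and TNF family receptors (39 tested) gave 16 lower and 5 higher in TLR than in CpG cells, and 18 lower and 9 higher in CpG than in naive cells. Toll-like and other pattern receptors (25 tested) gave 12 lower and 1 higher at the second step and 13 lower and 5 higher at the first. Among 46 genes of phosphoinositide and lipid signalling, 25 were lower and 4 higher at the second step and 24 lower and 8 higher at the first. Complement, Fc and Fc-like receptors (15 tested) gave 5 lower and 1 higher at the second step and 8 lower and 3 higher at the first, and the 8 Gimap GTPases gave 4 lower at the second step and 3 lower and 2 higher at the first.

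**Figure D5:**
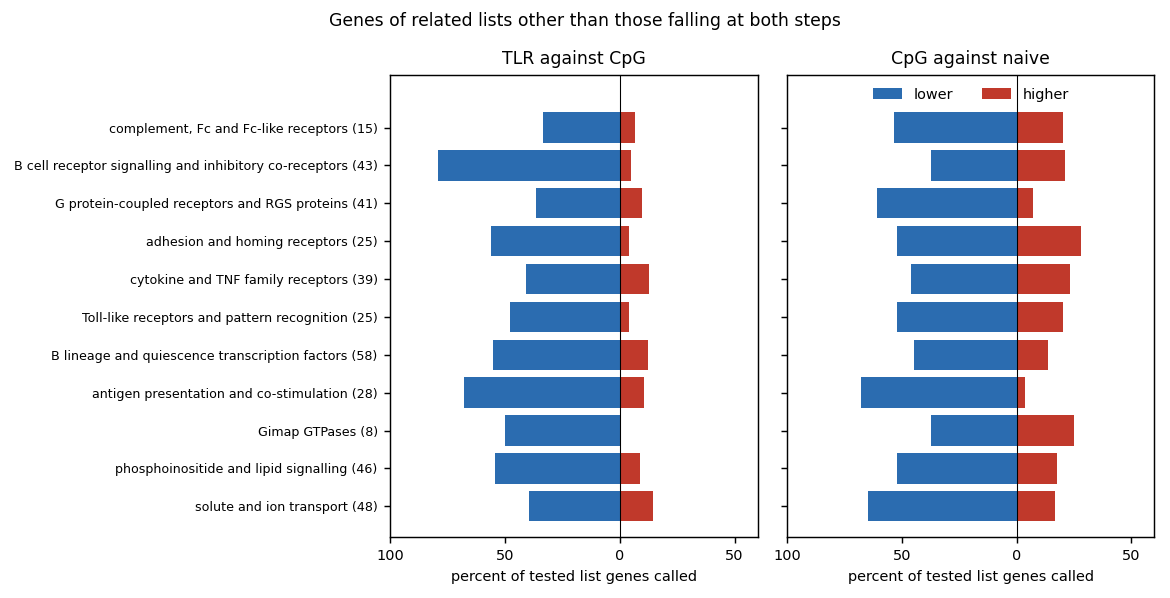
Percent of the tested genes of each of 11 related lists (number tested in parentheses, members left out) called lower (left of 0, blue) or higher (right of 0, red) in TLR against CpG cells and in CpG against naive cells. B cell receptor signalling has the longest blue bar in TLR against CpG (34 of 43), and antigen presentation is at 19 of 28 lower in both panels.

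Among non-members with the smallest p-values on these lists, some were lower at both steps and some only at the first. Klf2, a transcription factor of lymphocyte quiescence and homing, had 7.24 and 7.93 CPM in TLR cells, against 332, 316 and 273 CPM in CpG cells and 847, 586 and 701 CPM in naive cells. It was lower in TLR than in CpG cells (log2 fold change -5.35 ± 0.22, edgeR adjusted p = 2.67e-06) and lower in CpG than in naive cells (-1.19 ± 0.15, adjusted p = 0.000202), a first step short of 3-fold. Ciita, the master activator of class II genes, had 15.2 and 18.7 CPM in TLR cells, against 274, 257 and 231 CPM in CpG cells and 492, 571 and 519 CPM in naive cells (TLR against CpG -3.92 ± 0.17, edgeR adjusted p = 2.67e-06). Ciita was also lower in CpG than in naive cells (-1.03 ± 0.13, edgeR adjusted p = 0.000204). Abca1, a cholesterol exporter related to the member Abcg1, had 6.89 and 6.28 CPM in TLR cells, against 4.999, 8.796 and 8.71 CPM in CpG cells and 220.0, 222 and 191 CPM in naive cells: it was lower at the first step (-4.79 ± 0.20, edgeR adjusted p = 5.44e-07), and its TLR and CpG libraries overlapped. Fcmr, the Fc receptor for IgM, averaged 64.9 ± 12.8 CPM in TLR cells, 119 ± 22.7 CPM in CpG cells and 1231 ± 154 CPM in naive cells (SD). Fcmr was lower at the first step (-3.35 ± 0.19, edgeR adjusted p = 2.55e-06) and, by less, at the second (-0.89 ± 0.20, edgeR adjusted p = 0.00685). The opposite direction was seen for Cd86, a co-stimulatory ligand, with 97.9 and 100.3 CPM in TLR cells, against 7.72, 14.2 and 10.96 CPM in CpG cells and 67.3, 48.2 and 46.3 CPM in naive cells, lower at the first step and higher at the second (3.16 ± 0.23, edgeR adjusted p = 1.30e-05). Dock9, an exchange factor for Cdc42, was higher at the second step (1.29 ± 0.12, edgeR adjusted p = 3.24e-05), and Fcrl5 and Itgb1 were higher at the first (3.87 ± 0.19 and 2.46 ± 0.14, edgeR adjusted p = 1.02e-06 and 2.05e-06).

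Promoter letters were searched in the 65 RefSeq genes that matched 66 members (91 promoters), in 6846 other genes with a naive mean of at least 10 CPM (8737 promoters), and in all 27025 genes of the table (32851 promoters). The 15 members with no entry include Abcg1, Adgre1, Carmil1, Grk3, Itgb3, Kbtbd11, Map3k19, Rgs18, Scml4, St14 and Zfp831. Both strands were read, 12 motifs were searched, and a match is a description of letters, not of a bound site. Members had more promoters per gene than the others, so shares are also given per promoter. The median promoter GC content was 54.7% for members, 61.3% for the other genes at that naive level and 52.8% for the whole table.

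Shares of genes with a match differed in both directions. The GC box (GGGCGG), of which Snn holds 3, was found in 30 of 65 member genes (46.2%, 95% exact interval 33.7% to 58.97%), against 71.9% of the other genes and 38.2% of the whole table. The GAS motif (TTCNNNGAA), seen above in Ltb and Ccr6, was found in 13 of 65 (interval 11.1% to 31.8%). It was in 8.08% of the other genes and 9.55% of the table. Genes called lowered at 1 step alone were past 3-fold at that step and not at the other. They can be lower at the other step too, by less than 3-fold. The GAS motif was in 3.80% of genes lowered at the first step alone and 7.605% of those lowered at the second alone. Counted per promoter, the GC box was in 35.2% of member promoters, against 65.2% of those of the other genes, and the GAS motif in 15.4%, against 6.63%. The ETS motif (CCGGAAGT) was in 0 of 65, with a 95% exact upper limit of 5.52%, against 11.3% of the other genes, while the PU.1 motif (GAGGAAGT), which shares the letters GGAAGT with it, was in 6 of 65 (9.23%), against 3.91%. Genes lowered at the first step alone held the GC box in 64.6%, ETS in 1.27% and PU.1 in 6.33%. For genes lowered at the second step alone the shares were 59.7%, 2.66% and 6.84%, so low ETS shares were not particular to the members. None of these differences was tested.

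The other 8 motifs were counted in the same way. The E-box (CAGGTG) was in 19 of 65 member genes (29.2%), against 19.4% of the other genes and 22.6% of the table. FOXO (TGTTTAC) was in 4 of 65 (6.15%), against 3.10% and 4.05%, and the octamer (ATGCAAAT), the site known for Pou2f1 and its relatives, in 3 of 65 (4.62%), against 1.43% and 1.97%. NF-kB (GGGANTTCC) matched only in Ccr6 among the members (1.54%, against 3.02% of the other genes and 1.92% of the table). The AP-1 letters TGANTCA were in 4 of 65 (6.15%), against 5.54% and 8.97%. The TATAAA box was also in 4 of 65, against 7.92% and 15.7%. The KLF letters CCACACCC were in 2 of 65 (3.08%), against 4.40% and 4.09%. The CRE letters TGACGTCA were in 0 of 65, with the same upper limit as the ETS motif, against 3.87% and 2.03%. Shares follow for genes lowered at the first step alone and at the second alone, in that order. The E-box was in 26.6% and 26.2%, CRE in 1.27% and 1.90%, FOXO in 4.43% and 4.94% and the octamer in 2.53% and 1.90%. NF-kB was in 1.90% and 3.80%, AP-1 in 8.86% and 9.13%, TATAAA in 15.2% and 12.9% and KLF in 8.23% and 6.08%.

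Gene structure was also compared, as a description. Members spanned a median of 41921 bases of genome, against 24653 for the other genes with a naive mean of at least 10 CPM, and had a median coding length of 1776 bases, against 1422. Exonic length differed less (5207 bases, against 4802). The AU-rich element letters TATTTAT occurred in the 3′ UTR of 25 of 80 members with an annotated one (31.2%, 95% exact interval 21.3% to 42.6%), against 30.9% of the others. Chromosomes 1 and 17 carried 11 members each (13.6%), against 5.62% and 5.14% of the other genes with a naive mean of at least 10 CPM, a difference that was not tested. Exons of 29 members are shared with other genes, for 25 of them with one on the opposite strand, and for 3 (H2-Oa, Hist3h2a and Kbtbd11) more than 20% of exonic bases are shared.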

How the data were processed

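RNA-seq libraries of 8 samples (2 TLR, 3 CpG and 3 naive) were made from poly(A) RNA with a directional kit, per the labels' protocols. The authors deposited raw read counts per Ensembl gene identifier, with STAR, HTSeq, edgeR and the mm9 build named in the submitters' processing notes, without versions. No release of the gene annotation is stated there. Counting ignored strand, per the file names. Lines that name no gene were left out of library sizes; as shares of everything counted, multiply aligned reads were 14.7% to 50.2%, reads outside genes 7.84% to 15.0%, and reads shared between genes 1.29% to 2.15%.

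CPM (counts per 1000000 counts in genes) was computed from the counts. Symbols matched 32860 of 37583 identifiers. Genes with enough counts (edgeR's filterByExpr, 13964 genes) were fitted over all 8 libraries with edgeR 4.0.16 (R 4.3.3), with TMM scaling, the quasi-likelihood test and Benjamini-Hochberg adjustment, and a threshold of 0.05. DESeq2 1.42.0 was an alternative, and the fit was tested on simulated data. Intervals and bounds cover counting error only, with a floor of 3 counts over a group. The members, their roles, the gene lists and the promoter motifs were chosen with earlier results of these data known. Members named with all their values were up to 4 with the highest naive mean in each of 12 functional lists, the 10 highest in no list and the 5 with the smallest TLR-to-naive ratio, with Gpr146, Scml4, A430078G23Rik, Adgre1, Lrp1, Grk3, Tgfbi, Fyb and Abcg3 added after their values were seen; related genes were the 2 with the smallest p in each direction and comparison. Other scalings, filters, thresholds, fits and left-out libraries were tried. A few members, 1 marker and the counts of 1 list are not reported here.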

Additional observations from a re-analysis of the deposited data

How the results depend on the processing

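The rule fixed the members' direction, so a kept sign shows nothing about stability. Of 444 alternative values for the named members in each comparison, 7 moved by more than the spread between replicates for CpG against naive and 24 for TLR against CpG. The number of genes that met the rule depended on its fold, with 228 genes at 2-fold and 42 at 4-fold. Leaving out each library in turn gave 67 to 96 genes, and the RCa18 libraries alone gave 67, of which 54 were among the 81. Without TLR replicate 1, 3516 genes were called in TLR against CpG, and leaving out each library in turn gave 3516 to 5625 for that comparison and 4888 to 6738 for CpG against naive. The members' median log2 fold change for TLR against CpG was -2.62 with the replicate block, -2.63 with the file prefix as a term and -2.75 without TLR replicate 2, and leaving out each library gave -2.75 to -2.49. For CpG against naive that range was -2.48 to -2.26. The replicate number as a block gave 5541 genes called in TLR against CpG and 6665 in CpG against naive. Deviations of same-numbered libraries correlated at 0.320 and 0.341 between CpG and TLR cells, and at -0.0179 to 0.137 with naive cells. With 2 TLR libraries their deviations mirror each other, so these values are not independent. Replicate 1 also carries the RCa1 prefix, so for it a shared number and a shared prefix cannot be told apart. The numbers were not taken to pair the samples. The difference in GC box share between members and other genes was -25.8 percentage points. It was -18.4 against genes lowered at the first step alone and -6.95 against all protein-coding genes. Library size alone, the other filters, the 2-group fits and the prefix term were chosen after seeing the data. Where 1 TLR library was left out, the other was assumed to vary like the other groups. With 2 TLR libraries, and 41 members under 1 CPM in TLR cells, the second step is the less precise one, and 11 of 176 list counts moved by over 1.5 times.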
